A study of Mus musculus with 2 samples.

Results

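The genes of the circadian clock were examined in mouse hepatocyte cultures that carried a lentivirus expressing the long noncoding RNA H19 and in cultures that carried the control virus. The 10 genes were taken by name (Arntl, Clock, Per1, Per2, Per3, Cry1, Cry2, Dbp, Tef and Nfil3), and each had 1 row among the 21145 genes of the expression table. The cells were AML12, a nontumorigenic hepatocyte line that derives from mice transgenic for human TGF alpha; the labels give the strain as CD1/MT42 and passages 14 to 16 for both groups. The H19 line was infected with Lv-H19 and the control line with the control virus Lv-NC, and both were selected with 0.5 mg/ml puromycin and kept in DMEM with 10% serum and 0.25 mg/ml puromycin. AML12 cells in general were grown with 40 ng/ml dexamethasone, and the labels do not say whether the medium of the stable lines held it. The study concerned a Sox9 and H19 axis in hepatocyte death and liver fibrosis, and the comparison asks which transcripts differ once H19 is expressed.

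There were 2 libraries, 1 per line, so the values carry no replicate error and no test was run. Whether the stable lines were pools or single clones is not stated in the labels. Each library is a single time point whose clock time the labels used here do not state, so a difference in the level of a clock gene and a difference in the phase of its rhythm cannot be told apart. In bulk RNA, fewer cells that express a gene and less RNA per cell cannot be told apart either.

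The mammalian clock is a feedback loop of transcription. ARNTL (also called BMAL1) and CLOCK bind E-box sequences as a dimer and activate the Per and Cry genes, whose proteins then repress that dimer. A second loop runs through the nuclear receptors NR1D1 and NR1D2, which repress Arntl, Clock and Nfil3, and the ROR receptors, which activate them. In liver, the PAR bZIP activators DBP, TEF and HLF and the repressor NFIL3 compete for D-box sequences and pass the rhythm on to metabolic genes.

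Promoter sequences are shown for Per1, Cry1, Tef and Per3, the clock genes with an E-box or D-box outside exons shortly before a transcript start, and for the loop gene Ciart with the most E-boxes, so that the values below can be read beside them. The window was the 250 bases before each RefSeq transcript start on GRCm38.p6, and 9 of the 10 genes had at least 1 window (Per2 did not). The motifs searched on both strands were the E-box (CACGTG), the E'-box (CACGTT), the D-box (TTATGTAA or TTACGTAA), the core of the ROR element (TAGGTCA or TGGGTCA) and the CRE (TGACGTCA). In the sequences, read 5′ to 3′ on the gene's strand with exonic bases left out, capitals mark E-boxes in Per1, Cry1, Tef and Ciart, an E'-box on the opposite strand in Cry1, and D-boxes in Per3.
Per1 (chr11:69098699-69098947, plus strand): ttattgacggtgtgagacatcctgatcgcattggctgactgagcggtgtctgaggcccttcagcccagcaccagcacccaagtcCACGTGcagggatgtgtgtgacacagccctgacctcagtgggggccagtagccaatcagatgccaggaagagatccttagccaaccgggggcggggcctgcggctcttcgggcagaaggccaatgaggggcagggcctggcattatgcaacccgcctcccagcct
Cry1 (chr10:85185065-85185304, minus strand): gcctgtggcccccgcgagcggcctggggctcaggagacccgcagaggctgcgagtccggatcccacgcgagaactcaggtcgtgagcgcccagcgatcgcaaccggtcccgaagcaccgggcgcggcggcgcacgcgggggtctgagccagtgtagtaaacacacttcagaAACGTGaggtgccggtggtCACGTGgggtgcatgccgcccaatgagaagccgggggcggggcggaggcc
Tef (chr15:81811164-81811413, plus strand): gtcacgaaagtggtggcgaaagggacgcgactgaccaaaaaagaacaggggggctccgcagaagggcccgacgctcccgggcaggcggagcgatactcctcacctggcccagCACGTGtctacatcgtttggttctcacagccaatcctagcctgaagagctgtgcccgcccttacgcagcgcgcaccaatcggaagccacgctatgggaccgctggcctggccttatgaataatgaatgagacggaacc
Ciart (chr3:95882252-95882478, minus strand): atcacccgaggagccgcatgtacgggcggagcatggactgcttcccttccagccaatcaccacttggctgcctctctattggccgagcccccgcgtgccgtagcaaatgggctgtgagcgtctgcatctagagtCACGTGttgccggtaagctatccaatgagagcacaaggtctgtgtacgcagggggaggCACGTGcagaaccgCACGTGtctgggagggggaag
Per3 (chr4:151044666-151044915, minus strand): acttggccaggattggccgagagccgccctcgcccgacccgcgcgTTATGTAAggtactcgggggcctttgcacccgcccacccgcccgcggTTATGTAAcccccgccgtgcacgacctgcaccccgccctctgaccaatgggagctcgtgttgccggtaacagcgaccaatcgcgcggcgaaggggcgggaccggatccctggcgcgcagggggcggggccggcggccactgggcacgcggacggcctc

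The E-box lay 166 bases before a downstream start of Per1, 60 bases before the start of Cry1 and 138 bases before a downstream start of Tef. The window of another Per1 start, further downstream, held none of the motifs. Ciart, a repressor of the ARNTL and CLOCK dimer described below, held 3 E-boxes, at 116, 58 and 44 bases. Per3 held 2 D-boxes, at 205 and 158 bases. The E-box was found in 3 of the 9 genes with a window (Per1, Cry1 and Tef), where 6.02% of all 32851 windows held it. The E'-box was found in 2 (Cry1 and Cry2), against 3.85% of windows, and the CRE in 0, against 1.55%. The D-box was found in 1 of the 9 genes, against 0.931% of windows, and the ROR core in 1, Nfil3, in a stretch that is exonic in GENCODE, against 5.38% of windows. Genes with several starts had several windows, so these shares are not on quite the same footing. A match is a description of the letters, and its absence from a window says nothing of more distant sites.

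The identity of the libraries was checked first. H19 (chr7:142575529-142578143, minus strand, GRCm38) was at 4.72 FPKM in the H19 library and was listed at 0 in the control library. FPKM are fragments per kilobase of transcript and per 1000000 mapped fragments, computed by the authors. There were 19063 genes above 0 in the H19 library and 19595 in the control library, and the depth is unknown, since FPKM hold no read totals. Of 12 hepatocyte markers, 6 had a mean FPKM of at least 1 over both libraries. The liver transcription factor Hnf4a was at 44.4 FPKM in the H19 library and 74.4 FPKM in the control library, and apolipoprotein B, Apob, at 104 FPKM in the H19 library and 108 FPKM in the control library. Albumin was at 0.178 FPKM in the H19 library and 0.990 FPKM in the control library, and Cps1, Asgr1 and Fgb were at or near 0 in both, so several markers of mature hepatocytes were absent or nearly so. Summed levels in the H19 and control libraries were 463 and 818 FPKM for 5 bile duct markers, 1.26 and 3.86 FPKM for 6 stellate cell and fibroblast markers, 1.99 and 5.15 FPKM for 4 macrophage markers, and 0.314 and 0.469 FPKM for 3 endothelial markers. With a mean of at least 1 FPKM, 6 hepatocyte markers were lower in the H19 library and 0 higher. Among them Serpina1a was at 0.192 FPKM there and 2.12 FPKM in the control library. Of such bile duct markers, 3 were lower and 1 higher. Krt7 was at 10.6 FPKM in the H19 library and 39.7 FPKM in the control library. The macrophage markers Cd68 and Lyz2, with such a mean, were lower in the H19 library. Of all genes with such a mean, 41.1% were lower. Markers under that mean differed in direction. Krt19 and Spp1 made up most of the bile duct sum, and Sox9 was at 11.1 FPKM in the H19 library and 8.02 FPKM in the control library. Des made up most of the stellate sum, at 0.893 FPKM in the H19 library and 3.43 FPKM in the control library, while Col1a2, Col3a1 and the macrophage marker Ptprc, all under 1 FPKM, were higher in the H19 library. The part of these differences in the clock gene values was not tested.

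None of the clock genes differed by 2-fold between the lines. Differences were taken as log2(FPKM + 1) in the H19 library less the same quantity in the control library. A gene was called when the difference was at least 2-fold on that scale and its FPKM averaged at least 1 across the libraries, and genes with such an average are referred to as measured. Of the 10 genes, 7 were measured and none was called, where 2.71% of the 11674 genes with such a mean were called in either direction (1.14% higher and 1.57% lower). In number these were 133 higher and 183 lower, or 90 and 238 once the median difference of all measured genes was set to 0. At a share of 2.71%, few calls would fall in a list of 7 genes. The 7 genes had differences above 0 with FPKM as deposited, from 0.00 for Tef, which turned below 0 under other scalings, to 0.78 for Nfil3. By any amount, 58.9% of all measured genes were higher in the H19 library and 41.1% lower. The median difference of the 7 genes was 0.38, beside 0.08 over all measured genes. Per2, Per3 and Dbp, which the filter left out with averages under 1 FPKM, were lower in the H19 library. The median was 0.22 over all 10 genes, and 0.19 after rescaling to TPM, which brought Per2 and Per3 past the filter. The authors' deposited table of differences, which holds 561 genes or 2.65% of those in the expression table, includes 0 of the 10.

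**Figure D1:**
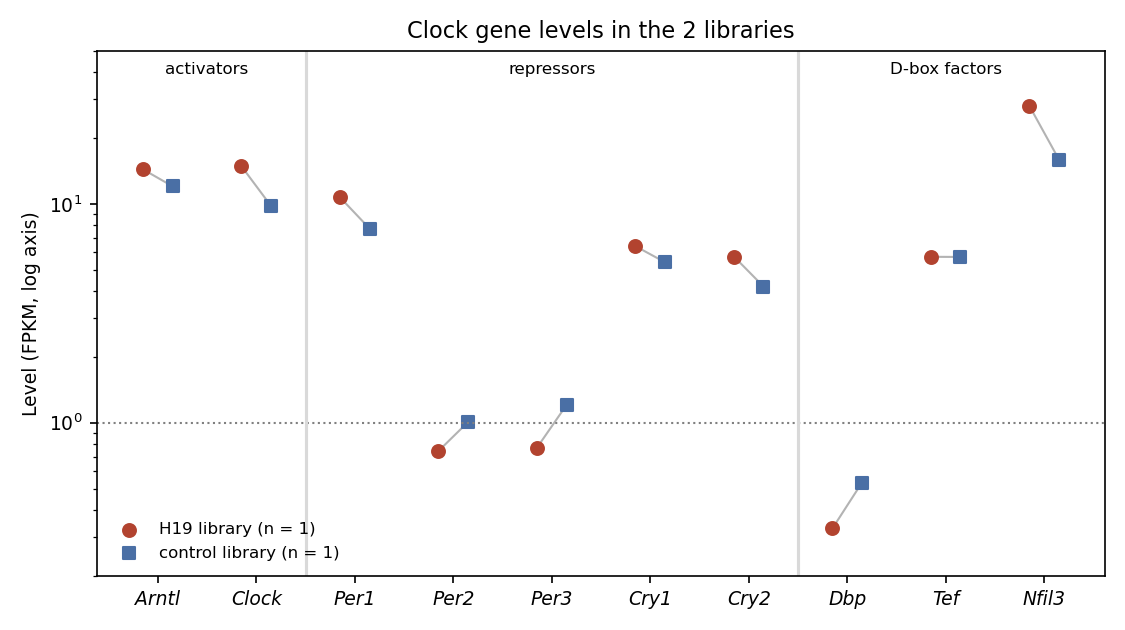
Level of each clock gene in FPKM on a log axis, in the H19 library (circles) and the control library (squares), with 1 library per group; the dotted line is 1 FPKM. Nfil3 is highest and Dbp lowest in both libraries, and the 3 genes that are lower in the H19 library lie near or under 1 FPKM.

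The activators of the loop were both higher in the H19 library. Arntl (chr7:113207465-113314126, plus strand) was at 14.4 FPKM in the H19 library and 12.0 FPKM in the control library, a ratio of 1.19 and a difference of 0.24. Clock (chr5:76209868-76304792, minus strand) was at 14.8 FPKM in the H19 library and 9.77 FPKM in the control library, a ratio of 1.52 and a difference of 0.56. Clock was therefore the higher of the pair in the H19 library and Arntl in the control library, with a ratio of Arntl to Clock of 0.968 in the H19 library and 1.23 in the control library. Their summed level was 29.2 FPKM in the H19 library and 21.8 FPKM in the control library. A higher difference than that of Clock was seen in 10.2% of measured genes, and than that of Arntl in 33.5%.

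Of the paralogs that can stand in for these activators, neither was expressed at a mean of 1 FPKM. Arntl2 was at 0.326 FPKM in the H19 library and 0.683 FPKM in the control library. Npas2, the paralog of Clock, was listed at 0 in the H19 library and at 0.00826 FPKM in the control library.

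The period genes, which encode repressors that enter the nucleus with the cryptochromes, did not share a direction. Per1 (chr11:69095217-69109960, plus strand), the period gene with an E-box in its printed promoter, was at 10.7 FPKM in the H19 library and 7.71 FPKM in the control library, a ratio of 1.39 and a difference of 0.43. Per2 (chr1:91415982-91459324, minus strand) was at 0.742 FPKM in the H19 library and 1.01 FPKM in the control library, a difference of -0.20. Per3 (chr4:151003652-151044665, minus strand), with its pair of D-boxes, was at 0.768 FPKM in the H19 library and 1.20 FPKM in the control library, a difference of -0.32. Per1 was thus higher, and Per2 and Per3 lower, in the H19 library, and the summed level of the family was 12.2 FPKM in the H19 library and 9.92 FPKM in the control library.

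Most period transcript came from Per1 in both lines. Its share of the summed FPKM was 87.6% in the H19 library and 77.7% in the control library. The share of Per2 was 6.08% in the H19 library and 10.2% in the control library, and that of Per3 was 6.29% in the H19 library and 12.1% in the control library. These shares are taken within a library, so a scaling between the libraries does not move them, although the shares of Per2 and Per3 rest on levels near 1 FPKM.

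The cryptochromes, the other repressors of the loop, were both slightly higher in the H19 library. Cry1 (chr10:85131700-85185064, minus strand), whose promoter is printed above with its E-box, was at 6.40 FPKM in the H19 library and 5.40 FPKM in the control library, a difference of 0.21. Cry2 (chr2:92403646-92434043, minus strand) was at 5.74 FPKM in the H19 library and 4.19 FPKM in the control library, a difference of 0.38. Cry1 was the higher of the pair in both lines, with a ratio of Cry1 to Cry2 of 1.11 in the H19 library and 1.29 in the control library.

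The summed repressor and activator levels stood in a similar ratio in the lines. The summed level of the Per and Cry genes over that of Arntl and Clock was 0.834 in the H19 library and 0.895 in the control library, and summed Per over summed Cry was 1.01 in the H19 library and 1.03 in the control library. Each of these ratios differed between the lines by less than the level of any single activator or cryptochrome did.

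The D-box factors showed the largest difference among the clock genes. Nfil3 (chr13:52967209-52981073, minus strand), which encodes the D-box repressor and is also induced by cytokines in immune cells, was at 28.0 FPKM in the H19 library and 15.9 FPKM in the control library. The ratio was 1.76 and the difference 0.78. On the log2(FPKM + 1) scale it was the 1 gene past 1.5-fold among the 7 measured. On that scale 15.2% of measured genes were past 1.5-fold (8.99% higher and 6.21% lower). A larger positive difference than that of Nfil3 was seen in 3.57% of measured genes. The plain FPKM ratio of Clock, 1.52, was also past 1.5-fold, while its difference of 0.56 on the log2(FPKM + 1) scale was not. Nfil3 was the most abundant of the 10 transcripts in both lines and stood above 84.5% of all listed genes in the H19 library and 76.3% in the control library.

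The activators of D-box genes did not share this difference. Tef (chr15:81802421-81826863, plus strand) was at 5.72 FPKM in the H19 library and 5.71 FPKM in the control library. Dbp (chr7:45705088-45710203, plus strand), one of the most strongly rhythmic transcripts of mouse liver, was at 0.329 FPKM in the H19 library and 0.532 FPKM in the control library, a difference of -0.21. Tef was therefore nearly equal in the lines and Dbp lower in the H19 library, and the ratio of Dbp plus Tef to Nfil3 was 0.216 in the H19 library and 0.392 in the control library. The level of Hlf, the third PAR bZIP activator, was not analysed here.

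**Figure D2:**
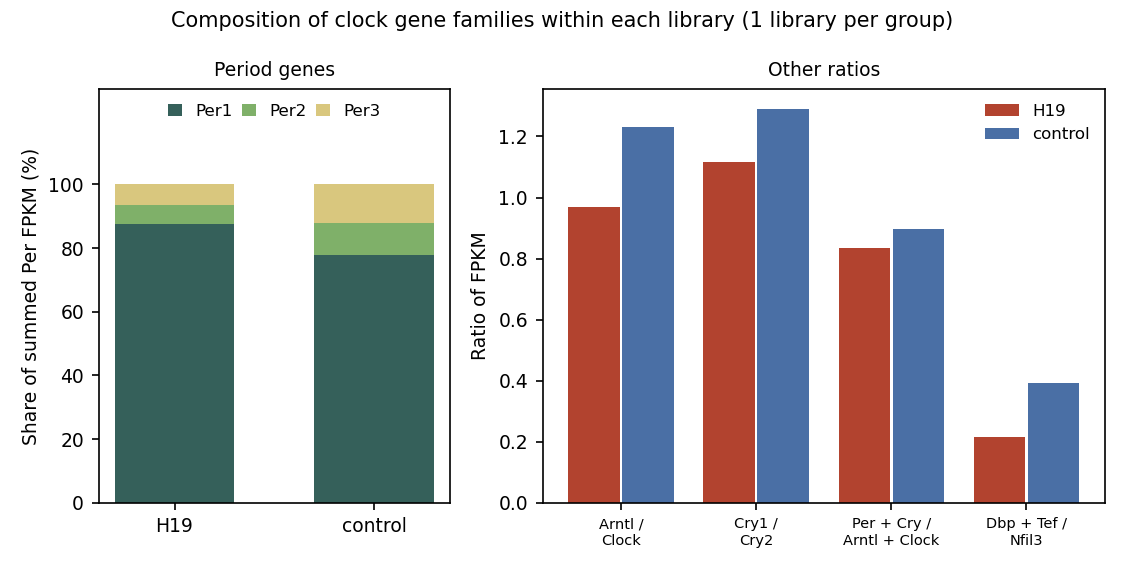
Left, share of Per1, Per2 and Per3 in the summed Per FPKM of each library; right, 4 ratios of FPKM within a library, with 1 library per group and no error bars. Per1 takes 87.6% of the period transcript in the H19 library and 77.7% in the control library, and the ratio of Dbp plus Tef to Nfil3 is 0.216 in the H19 library and 0.392 in the control library.

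The order of the 10 levels was nearly the same in the lines. Nfil3 ranked highest in both, Per1 stood below Arntl and Clock and above the rest, and Per3, Per2 and Dbp took the last places in the same order. Clock and Arntl exchanged places, and Tef stood above both cryptochromes in the control library but below them in the H19 library. Cry1, Cry2 and Tef lay between 5.72 and 6.40 FPKM in the H19 library and between 4.19 and 5.71 FPKM in the control library, and without replicates their order within those ranges cannot be tested.

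The low members rest on few fragments. With the longest annotated transcript as the length, the FPKM of Dbp correspond to 0.604 fragments per 1000000 mapped fragments in the H19 library and 0.978 in the control library. For Per3 these were 4.61 in the H19 library and 7.22 in the control library, and for Per2 they were 4.33 in the H19 library and 5.87 in the control library. Clock, the longest of the 10 transcripts, had 144 such fragments in the H19 library and 95.2 in the control library, so its difference rests on far more fragments than those of Dbp, Per2 and Per3. Dbp also shares 539 exonic bases with Sphk2 on the opposite strand, which was at 12.6 FPKM in the H19 library and 8.28 FPKM in the control library; reads of the pair cannot be told apart without strand, and whether strand was used is not stated.

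None of the other loop genes considered was called either, although 4 were past 1.5-fold. Of these 11 genes, 7 were measured and 0 called, beside 2.71% of all measured genes, a share at which few calls would fall among 7. The 4 past 1.5-fold, Nr1d1, Nr1d2, Bhlhe41 and Ciart, were all higher in the H19 library, beside 8.99% of measured genes that were higher by as much. Without the 1 FPKM added to both values, the ratios of Nr1d1, Bhlhe41 and Ciart were 2.02, 2.07 and 2.76.

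The repressors of the second loop were both higher in the H19 library. Nr1d1, the repressor of Arntl and Nfil3 transcription also known as REV-ERB alpha, was at 7.45 FPKM in the H19 library and 3.69 FPKM in the control library, a ratio of 2.02 and a difference of 0.85. Nr1d2, its paralog, was at 7.93 FPKM in the H19 library and 4.56 FPKM in the control library, a difference of 0.68. Their summed level was 15.4 FPKM in the H19 library and 8.25 FPKM in the control library, a ratio of 1.87.

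The ROR receptors Rorb and Rora, activators that bind the same element, were at low levels. Rorb was at 1.34 FPKM in the H19 library and 1.32 FPKM in the control library, and Rora at 0.0178 FPKM in the H19 library and 0.0451 FPKM in the control library. Arntl, Clock and Nfil3, the targets of NR1D1 and NR1D2 that were introduced above, were each higher in the H19 library, at the values given above. Other targets were not examined as a set, and the part of NR1D1 and NR1D2 in these values was not tested. Nr1d1 shares 263 exonic bases with Thra on the opposite strand, and Thra was at 10.1 FPKM in the H19 library and 12.7 FPKM in the control library.

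The E-box repressors of the loop also differed among themselves. Ciart, which encodes the repressor CHRONO and holds the E-boxes shown above, was at 2.39 FPKM in the H19 library and 0.867 FPKM in the control library, a ratio of 2.76 and a difference of 0.86. In the authors' deposited table Ciart has a log2 ratio of 1.47, a p of 0.00237 and a q of 0.0307, and it is the only gene of the loop there. Bhlhe41 (DEC2) was at 3.70 FPKM in the H19 library and 1.78 FPKM in the control library, a difference of 0.75, while its paralog Bhlhe40 (DEC1) was at 30.4 FPKM in the H19 library and 41.4 FPKM in the control library, a difference of -0.44. Bhlhe41 was thus higher and Bhlhe40 lower in the H19 library, with Bhlhe40 the more abundant in both lines. Bhlhe41 shares 1280 exonic bases with Gm43909 on the opposite strand, which was at 0.927 FPKM in the H19 library and 0.489 FPKM in the control library, and reads of that pair cannot be told apart without strand. Timeless, a replication fork protein named after a fly clock gene, was at 10.3 FPKM in the H19 library and 9.10 FPKM in the control library.

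**Figure D3:**
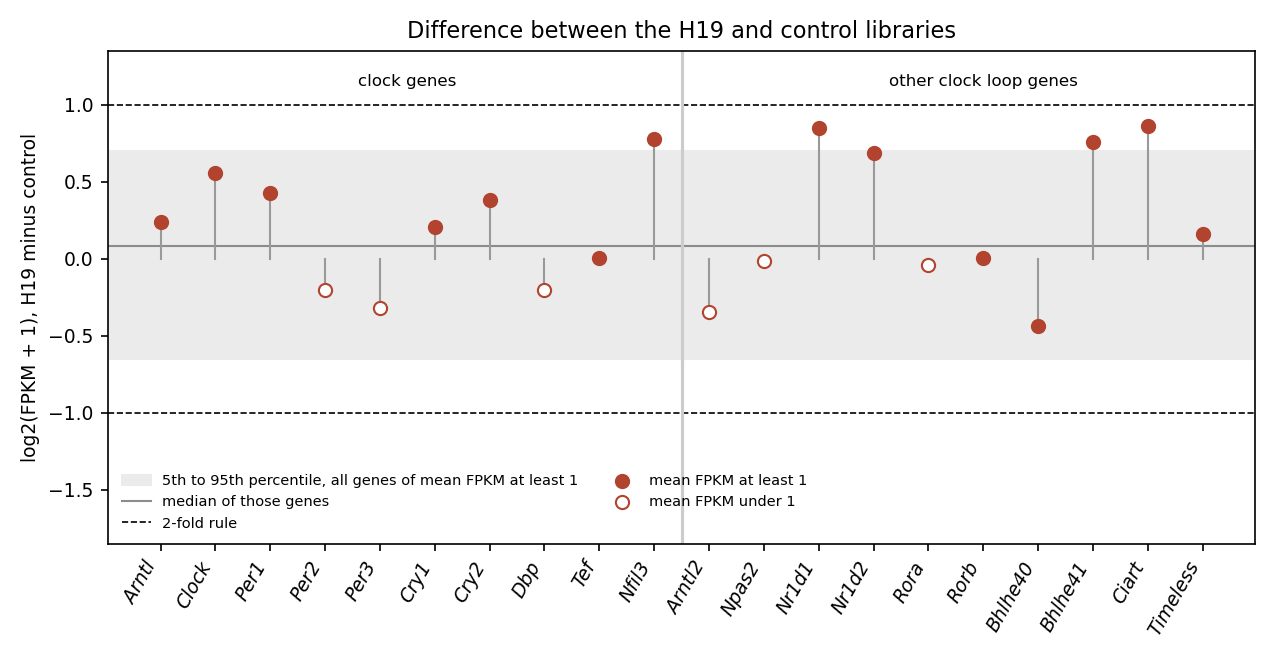
Difference in log2(FPKM + 1), H19 library minus control library, for the 10 clock genes and 10 other genes of the loop; filled points have a mean of at least 1 FPKM, open points less. The grey band holds the 5th to 95th percentile of all 11674 genes with such a mean, from -0.65 to 0.70, and no gene reaches the dashed lines of the 2-fold rule; Nfil3, Nr1d1, Bhlhe41 and Ciart lie above the band.

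The values can be set beside the E-boxes in the windows searched. Per1, Cry1 and Ciart, whose E-boxes are shown above, had differences of 0.43, 0.21 and 0.86. Bhlhe41 held 1 E-box, 153 bases before its start, and had a difference of 0.75. Tef had a difference of 0.00, which turned below 0 under other scalings. Measured genes with a window but no E-box in it ran from 0.01 for Rorb to 0.85 for Nr1d1. Among them were Nfil3 at 0.78, Nr1d2 at 0.68 and Arntl at 0.24. A link between E-boxes and the differences was not tested.

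Regulators of clock proteins held no called gene either. Of 19 kinases, ubiquitin ligases, deubiquitinases and cofactors, 17 were measured and 0 called, beside 2.71% of all measured genes, a share at which few calls would fall in a list of this size. Their differences ran from -0.46 for Fbxl21 to 0.58 for Sirt1, with a median of 0.09 beside 0.08. Csnk1d, the kinase that times the degradation of period proteins, was at 41.1 FPKM in the H19 library and 49.8 FPKM in the control library. Fbxl21, a ubiquitin ligase subunit for cryptochromes, was at 1.82 FPKM in the H19 library and 2.87 FPKM in the control library. Sirt1, a deacetylase that acts on PER2, was at 4.52 FPKM in the H19 library and 2.70 FPKM in the control library. The RACK1 gene, listed as Gnb2l1, was at 1342 FPKM in the H19 library and 1084 FPKM in the control library.

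Known clock outputs of liver held no called gene, where 2.71% of all measured genes were called, a share at which few would fall in so short a list. Of 18 genes, 11 were measured, 4 of them higher and 7 lower in the H19 library by any amount, beside 58.9% and 41.1% of all measured genes. Their median difference was -0.21 beside 0.08. Lpin1, a phosphatidate phosphatase of lipid synthesis, was at 1.92 FPKM in the H19 library and 3.52 FPKM in the control library. Cirbp, a cold-inducible RNA-binding protein, was at 12.7 FPKM in the H19 library and 19.6 FPKM in the control library. Por, the electron donor of cytochromes P450 and a D-box output, was at 27.7 FPKM in the H19 library and 39.2 FPKM in the control library. Ppara, a fatty acid sensor and E-box output, was at 0.696 FPKM in the H19 library and 1.52 FPKM in the control library, and in the authors' deposited table it has a log2 ratio of -1.12 with a q of 0.0410. The P450 genes Cyp7a1, Cyp2a5 and Cyp2b10 were under 1 FPKM in both libraries.

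Glucocorticoids, serum and cAMP are known to reset clocks through the Per genes, and other genes induced by them differed in both directions. Of 9 measured glucocorticoid-induced genes, 1 was called higher and 2 lower in the H19 library, beside 1.14% and 1.57% of all measured genes, with a median difference of -0.08 beside 0.08. Angptl4, a lipase inhibitor, was at 11.0 FPKM in the H19 library and 4.86 FPKM in the control library. Dusp1, a MAP kinase phosphatase, was at 12.0 FPKM in the H19 library and 26.9 FPKM in the control library, and the metallothionein Mt2 at 36.9 FPKM in the H19 library and 146 FPKM in the control library.

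The immediate early genes induced by serum or cAMP were as mixed. Of 10 measured genes, 1 was called higher and 2 lower, beside the same 1.14% and 1.57% of all measured genes, with a median difference of 0.01 beside 0.08. The AP-1 subunit Fos was at 0.696 FPKM in the H19 library and 12.3 FPKM in the control library, and Egr1, a zinc finger factor, at 1.63 FPKM in the H19 library and 12.2 FPKM in the control library. Atf3, a stress-induced factor, was at 68.2 FPKM in the H19 library and 25.0 FPKM in the control library. By any amount, 5 of the 10 measured genes were higher in the H19 library and 5 lower. Per1, itself an immediate early gene, was higher in the H19 library, like Atf3 and unlike Fos and Egr1. The part of these signals in the clock gene values was not tested.

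The direction of 9 of the 10 genes was the same under the other scalings tried. A pseudocount is added to both values and cannot change a direction. Equal upper quartiles moved the median difference of all measured genes from 0.08 to -0.02, and with that scaling, with that median set to 0 or with TPM, the difference of Tef turned below 0, to values between -0.10 and -0.06. Nfil3 stayed between 0.66 and 0.81 in the 11 settings tried, Clock between 0.45 and 0.60, and Per1 between 0.32 and 0.47. Only the scalings and pseudocounts moved these values. The other filters, the other thresholds and the tables of each library left the difference of each gene unchanged. The differences of the low genes grew with a smaller pseudocount, down to -0.68 for Dbp, -0.64 for Per3 and -0.44 for Per2, and none of them was called.

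**Figure D4:**
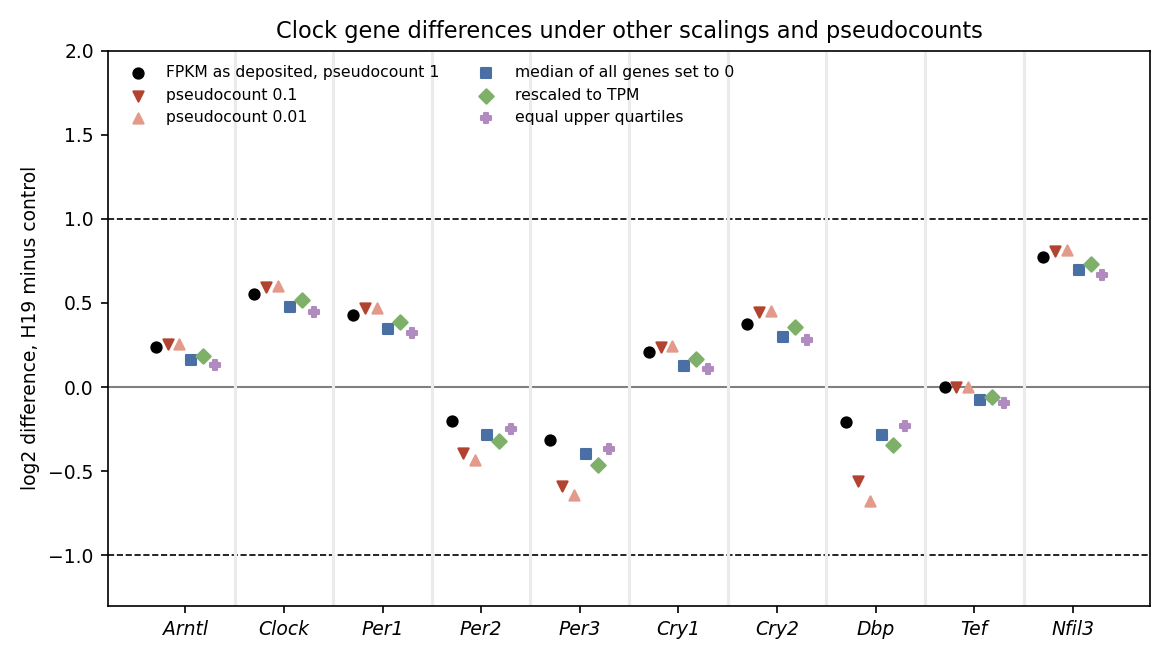
Difference of each clock gene, H19 library minus control library, on the log2 scale, with FPKM as deposited and a pseudocount of 1 (circles), with 2 smaller pseudocounts and with 3 other scalings; dashed lines mark the 2-fold rule. Only Tef changes sign, and no gene reaches the rule.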

How the data were processed

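Polyadenylated RNA from 2 AML12 lines was sequenced, 1 library per line, per the labels; the design text speaks of messenger RNA after removal of ribosomal RNA. CASAVA 1.4 and TopHat2, with the build mm9, are listed per the submitters' processing notes. Neither the program behind the expression values nor its use of strand is stated there. The values deposited by the authors are FPKM, per the file headers, in a table of both libraries and in 1 table per library. The authors' deposited table of differences gives log2 ratios, p-values and q-values, per the file headers, and its test is not stated. Of 21017 genes found in GENCODE release M21 on GRCm38, 99.9% had a deposited locus that overlaps that position, so coordinates are on GRCm38.

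The library titled Over19 was taken as the H19 line and Ctrl as the control virus line. Differences are log2(FPKM + 1), H19 minus control. The 10 genes and all lists were chosen with earlier results of these data known. All 10 genes, H19 and the other loop genes are named, except 1 loop gene that is not reported here; of further lists, called genes or otherwise up to 4 with the largest difference. Depth is unknown, since FPKM hold no read totals. Fragments per 1000000 were computed as FPKM times the longest annotated transcript in kilobases. Genes that overlap, or share a deposited locus, can exchange reads. Other settings tried were smaller pseudocounts (0.1 and 0.01), another filter (none, or an average of 5 FPKM), another scaling (TPM, upper quartiles made equal, or the median difference set to 0), another threshold (1.5-fold or 3-fold), the tables of each library, and averages in place of medians. The steps were tested on simulated data. Python 3.11.15, numpy 2.4.6 and pandas 2.3.3 were used, and promoters came from RefSeq on GRCm38.p6.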

Additional observations from a re-analysis of the deposited data

How the results depend on the processing

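No clock gene was called under any setting except the 1.5-fold threshold, which called 1 as higher (Nfil3). Their median difference was 0.22 with no filter on low values, which brings in Per2, Per3 and Dbp, and 0.19 after rescaling to TPM, where the filter was applied to TPM and brings in Per2 and Per3. Of the other loop genes, 2 were called with a pseudocount of 0.1 (Bhlhe41 and Ciart), 3 with 0.01 (also Nr1d1), 1 after rescaling to TPM (Ciart) and 4 at 1.5-fold. Of the clock outputs, 1 was called with either smaller pseudocount and 2 at 1.5-fold. Glucocorticoid-induced genes had 5 calls at 1.5-fold and 1 at 3-fold. Over all genes, 133 were higher and 183 lower in the H19 library. The numbers higher and lower were 275 and 316 with a pseudocount of 0.1, 295 and 341 with 0.01, 86 and 113 at a mean FPKM of at least 5, 90 and 238 with the median set to 0, 192 and 346 after rescaling to TPM, 83 and 247 with equal upper quartiles, 1050 and 725 at 1.5-fold, and 11 and 42 at 3-fold. The per-library tables gave the same counts as the table of both libraries. No paired analysis was possible because there was 1 library per group, and no library could be left out. Of the clock genes, Dbp, Per2 and Per3 rest on the fewest fragments; of the measured loop genes, Ciart does.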
